A study of Mus musculus with 12 samples.

Results

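The genes of the mouse mitochondrial genome were described across 12 RNA samples of brain cells, 3 in each of 4 groups. Every gene that the deposited table places on chromosome MT was taken, which gave 37 of its 55862 genes: 13 protein-coding genes, 2 rRNA genes and 22 tRNA genes. All 37 have the position and length of the GENCODE M21 annotation of GRCm38, and 9 of them, mt-Nd6 and 8 tRNA genes, lie on the minus strand. A fragment was counted on 35 of them in at least 1 sample and on 27 in every sample. The tRNA genes mt-Tf and mt-Ts1 had 0 fragments in all 12 samples, which allows up to 3 fragments in a library by counting error.

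The labels give the strain of all samples as C57BL/6, the methods give C57BL/6J for both NPC groups, and no transgene is named. ASTs were astrocytes cultured from the cortex of newborn mice in medium with serum and taken at day 0 of incubation. A-iSCs were the same kind of culture after 5 days as floating spheres over agarose. P56-NPCs were suspensions of cells dissociated from the subependymal zone of adult mice, and P0-NPCs were suspensions from the hippocampus at postnatal day 0. Both suspensions held whatever cells survived dissociation and centrifugation, since no sorting step is described for them. The labels do not say whether the 3 samples of a group came from separate cultures or animals, so p-values measure the spread between these samples only. Values are FPKM, which are fragments divided by gene length in kilobases and by library size, and the numbers of fragments behind them could be recovered from the steps between low values. Between 17077780 and 24452419 fragments were counted per sample.

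Mitochondrial DNA is a small circle present in many copies per cell. Both strands are transcribed from end to end by the polymerase Polrmt, and tRNAs lying between the longer genes are cut out to release separate mRNAs and rRNAs. The 13 mRNAs encode core subunits of the respiratory chain and of ATP synthase: mt-Nd1, mt-Nd2, mt-Nd3, mt-Nd4, mt-Nd4l, mt-Nd5 and mt-Nd6 for complex I, mt-Cytb for complex III, mt-Co1, mt-Co2 and mt-Co3 for complex IV, and mt-Atp6 and mt-Atp8 for ATP synthase. The rRNAs mt-Rnr1 and mt-Rnr2 belong to the small and large subunits of the mitochondrial ribosome. In brain, respiration supplies much of the ATP that neurons and glia use.

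The groups differed widely in their cells, which bears on every comparison that follows. Summed FPKM of 6 oligodendrocyte markers was 10825 to 12337 in P56-NPC samples and at most 75.9 in any sample of the other groups, and all 6 exceeded 1 FPKM in P56-NPCs. Mobp among them was at 0 in ASTs. The summed level of 7 neural stem and precursor markers was lowest in P56-NPCs, at 127 to 165 FPKM against 294 to 356 in the other groups, but single markers differed in direction. Nes had a mean of 3.76 FPKM in P56-NPCs and 196 in ASTs, and Hes5 of 19.8 and 0.463. Astrocyte markers summed to 116 to 133 FPKM in ASTs, 1146 to 2396 in A-iSCs, 2787 to 3015 in P56-NPCs and 224 to 288 in P0-NPCs, with 7 of 7 above 1 FPKM in each group. Fibroblast and smooth muscle markers summed to 1877 to 2275 FPKM in ASTs and at most 82.1 elsewhere, most of it Acta2 (mean 1848 FPKM in ASTs), whereas Dcn and Col1a2 were higher in P0-NPCs than in ASTs. The microglia sum was highest in A-iSCs, at 1084 to 1495 FPKM, most of it C1qa (mean 1029), although P2ry12 and Tmem119 were higher in P56-NPCs. The neuron sum was highest in P0-NPCs, at 761 to 937 FPKM, most of it Tubb3 (mean 634), although Snap25 and Map2 were higher in P56-NPCs. Ependymal markers reached 222 to 287 FPKM in P56-NPCs, and endothelial and pericyte markers reached 111 to 119 in P0-NPCs. A list of 8 genes taken as signs of RNA quality or dissociation held Malat1, Neat1, Fos, Fosb, Jun, Junb, Egr1 and Atf3. Of these, 5 (Malat1, Neat1, Fos, Junb and Atf3) were higher and 0 lower in A-iSCs than in ASTs by limma, where 25.2% of all genes were higher. In P56-NPCs 4 were higher and 2 lower, near the 39.1% and 39.8% of all genes, and in P0-NPCs 1 was higher and 6 lower, where 38.1% and 40.9% were. Haemoglobin genes summed to 355 to 560 FPKM in P56-NPCs, 159 to 333 in P0-NPCs and at most 0.444 in cultured cells. In bulk RNA, fewer cells of a type and less RNA per cell cannot be told apart, and the part of these markers in the mitochondrial values was not tested.

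Some mitochondrial genes have near-identical copies in the nuclear genome, and these decide which values can be read at face value. Alignment of the 37 genes to annotated transcripts found 17 nuclear copies with at least 90% identity over at least 50 bases. A run of 7 unprocessed pseudogenes lies on chr1:24611535-24616197 of GRCm38, on the minus strand, over 4663 bases. In it, Gm28661 copies mt-Co2, Gm10925 copies mt-Atp6, Gm28437 copies mt-Co3, Gm10222 copies mt-Nd4l and Gm28439 copies the first 876 bases of mt-Nd4, each with 100% identity. The other pair differ from their mitochondrial gene by a single base. Gm28438 differs from mt-Nd3 by T3C, counted from the first base of mt-Nd3, and Gm29216 differs from the end of mt-Co1 by A1066T, counted from the first base of mt-Co1, where the mitochondrial base comes first. The windows are shown 5′ to 3′ on the strand of the gene with the differing base in capitals, because within the aligned stretch a single letter is all that could assign a fragment to the mitochondrial or the nuclear locus.
mt-Nd3, MT:9459-9486, plus strand: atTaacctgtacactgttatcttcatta
Gm28438, chr1:24613092-24613119, minus strand: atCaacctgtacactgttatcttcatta
mt-Co1, MT:6390-6418, plus strand: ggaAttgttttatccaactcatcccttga
Gm29216, chr1:24616160-24616188, minus strand: ggaTttgttttatccaactcatcccttga

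The mRNAs were grouped by how much of them such a copy covers, with mt-Atp8 described apart. The 5 mRNAs copied over at least 90% of their length (mt-Co2, mt-Atp6, mt-Co3, mt-Nd3 and mt-Nd4l) were at 30.0 to 1640 FPKM across all samples. Of the 6 without a copy of at least 99% identity, the 5 other than mt-Atp8 (mt-Nd1, mt-Nd2, mt-Nd5, mt-Nd6 and mt-Cytb) were at 882 to 29629 FPKM, and mt-Co1 and mt-Nd4, copied in part, at 1370 to 54740. Gm10925, the mt-Atp6 copy, had 0.978 ± 0.0353 (SD, n = 3) times the FPKM of mt-Atp6 in ASTs, 0.956 ± 0.0779 in A-iSCs, 0.465 ± 0.0639 in P56-NPCs and 1.12 ± 0.148 in P0-NPCs. Gm28661 had 0.342 to 0.434 times the FPKM of mt-Co2 as group means, and Gm28437 0.585 to 0.642 times that of mt-Co3. Outside this run, Gm13340 on chromosome 2, with 97.6% identity over the whole of mt-Co1, had group means of 2.56 to 22.7 FPKM against 9706 to 49301 for mt-Co1 itself. How fragments that match both loci were counted is not given in the sources used here, so the level of the copied mRNAs was treated as uncertain, and fragments of these genes and of their copies cannot be told apart. The 7 mRNAs of the other sets (mt-Nd1, mt-Nd2, mt-Co1, mt-Nd4, mt-Nd5, mt-Nd6 and mt-Cytb) were used for ratios between genes.

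mt-Atp8 was the lowest of the mRNAs in every group and has no annotated copy of its own. It was at 1.17, 1.93 and 1.06 FPKM in ASTs, 4.13, 3.09 and 2.01 in A-iSCs, 21.2, 73.6 and 21.7 in P56-NPCs, and 3.00, 5.05 and 12.8 in P0-NPCs. These values rest on 4 to 241 fragments per sample, and the P56-NPC replicate 2 stood well above the others of its group. The gene is 204 bases long and shares its last 43 bases with the start of mt-Atp6. The mt-Co2 and mt-Atp6 copies in the nuclear run lie 233 bases apart, against 230 bases between mt-Co2 and mt-Atp6 themselves, so the interval that would hold an mt-Atp8 copy is also in the nuclear run without an annotated gene. Its full sequence is shown with the part shared with mt-Atp6 in capitals, since a fragment there can belong to either gene.
mt-Atp8, MT:7766-7969, plus strand: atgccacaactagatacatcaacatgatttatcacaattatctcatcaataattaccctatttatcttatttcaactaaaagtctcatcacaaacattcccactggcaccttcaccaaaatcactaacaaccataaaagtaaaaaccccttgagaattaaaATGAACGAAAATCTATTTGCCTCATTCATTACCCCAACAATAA

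Other pairs of genes overlap by fewer bases. mt-Nd4l and mt-Nd4 share 7 bases on the same strand, and mt-Nd5 and mt-Nd6 share the 14 bases of their ends on opposite strands. The last 40 bases of each are shown 5′ to 3′ with the shared bases in capitals. The kit named for these libraries is not stated to keep strand, so fragments of mt-Nd6 cannot be told apart from RNA of the opposite strand at the same place.
mt-Nd4l end, MT:10134-10173, plus strand: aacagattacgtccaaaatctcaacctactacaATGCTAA
mt-Nd5 end, MT:13526-13565, plus strand: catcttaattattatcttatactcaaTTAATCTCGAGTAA
mt-Nd6 end, MT:13552-13591, minus strand: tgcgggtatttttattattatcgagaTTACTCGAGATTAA

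Mitochondrial genes held a larger share of the RNA of P56-NPCs than of any other group. Of all counted fragments, they held 2.94, 4.70 and 3.17% in AST replicates 1 to 3, 7.03, 5.49 and 3.05% in A-iSCs, 16.5, 17.6 and 17.0% in P56-NPCs, and 3.67, 4.97 and 5.55% in P0-NPCs. The 3 P56-NPC samples did not overlap any other sample, while the other groups overlapped each other. By class, the mRNAs held 13.8% ± 0.639 (SD, n = 3) of fragments in P56-NPCs and group means of 3.53 to 5.07% elsewhere. The rRNAs held 0.0616% ± 0.0178 in ASTs, 0.105% ± 0.0443 in A-iSCs, 3.22% ± 0.159 in P56-NPCs and 0.172% ± 0.046 in P0-NPCs. The tRNAs held 0.0458% ± 0.00426 in P56-NPCs and 0.00807 to 0.0131% as group means elsewhere. Within the mitochondrial fragments, the rRNA share was 18.9% ± 1.32 in P56-NPCs against 3.61% ± 0.459 in P0-NPCs, 2.01% ± 0.0842 in A-iSCs and 1.70% ± 0.0763 in ASTs, so the mitochondrial RNA of P56-NPCs was also of another make-up.

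**Figure D1:**
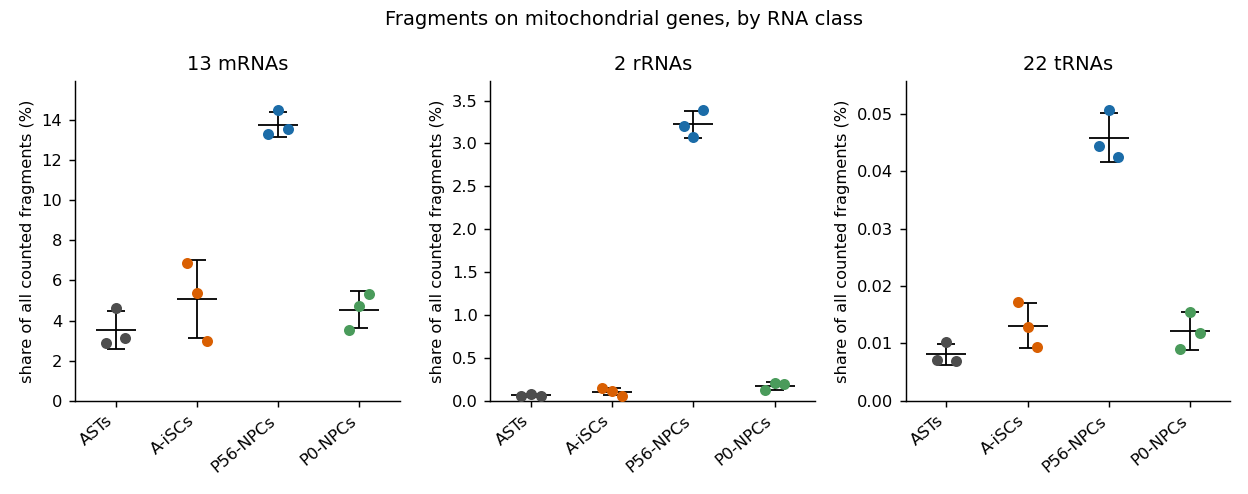
Share of all counted fragments, in percent, on the 13 mitochondrial mRNAs, the 2 rRNAs and the 22 tRNAs, 1 point per sample with the group mean (bar) and SD (error bars), n = 3 per group. P56-NPC samples lie above all others in each class, at 13.8% against group means of 3.53 to 5.07% for the mRNAs and at 3.22% against 0.0616 to 0.172% for the rRNAs.

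mt-Co1 (MT:5328-6872), the catalytic core subunit of cytochrome c oxidase, had the highest mean FPKM of all genes in each of the 4 groups. It was at 8056, 12296 and 8768 FPKM in ASTs, 16299, 12817 and 7897 in A-iSCs, 47105, 54740 and 46056 in P56-NPCs, and 7376, 10065 and 11701 in P0-NPCs, and held 32.3 to 45.0% of the mitochondrial fragments of a sample. mt-Cytb, the cytochrome b of complex III, was at 4365, 7626 and 4723 FPKM in ASTs, 10069, 7344 and 3865 in A-iSCs, 26054, 29629 and 28205 in P56-NPCs, and 5137, 6626 and 8456 in P0-NPCs. Only the P56-NPC samples stood apart for both genes. mt-Nd1 and mt-Nd2, complex I subunits and the next of the mRNAs in each group, had means of 5014 ± 1659 and 2620 ± 953 FPKM (SD, n = 3) in ASTs, 5055 ± 2182 and 2887 ± 1391 in A-iSCs, 26119 ± 1337 and 16307 ± 826 in P56-NPCs, and 6316 ± 1543 and 3213 ± 777 in P0-NPCs. Of the 10 genes with the highest mean FPKM in each group, 4 were mitochondrial in ASTs, 7 in A-iSCs, 9 in P56-NPCs and 6 in P0-NPCs. In P56-NPCs both rRNAs were among these 10, at ranks 4 and 6.

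**Figure D2:**
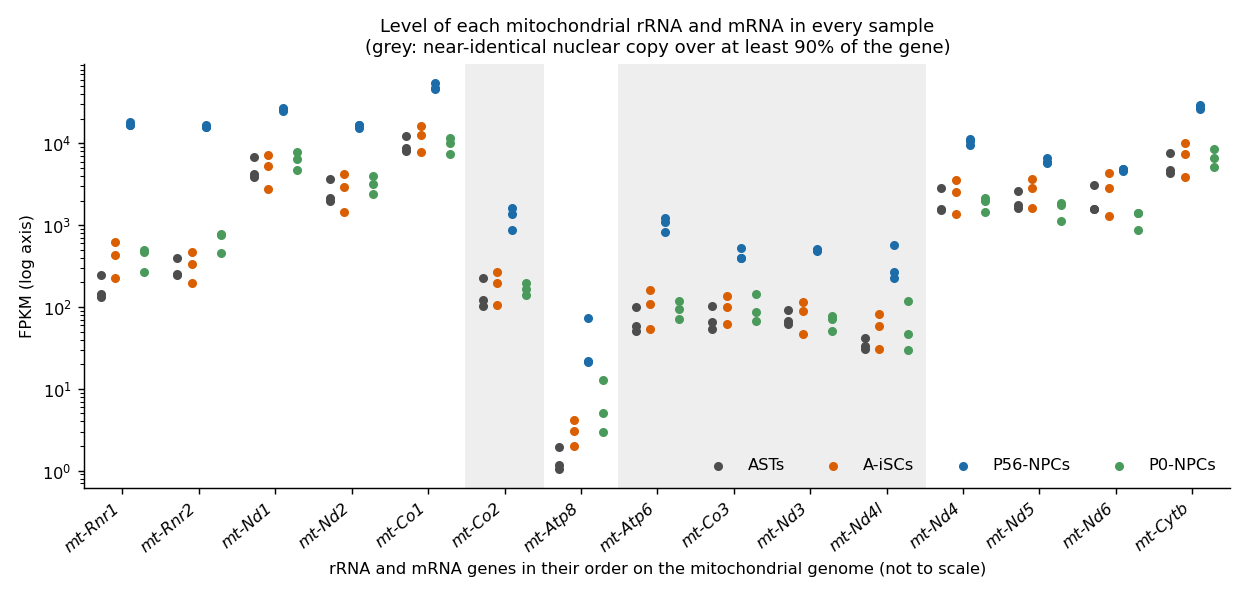
FPKM (log axis) of the 2 rRNAs and 13 mRNAs in each of the 12 samples, with genes in their order along the mitochondrial genome and 1 colour per group. Grey marks the 5 genes with a near-identical nuclear copy over at least 90% of their length, which lie at 30.0 to 1640 FPKM, between mt-Atp8 and the remaining mRNAs.

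Within 3 of the 4 groups, the mRNAs shared their highest or lowest sample. AST replicate 2 had the highest FPKM for 13 of 13 mRNAs, A-iSC replicate 1 the highest and A-iSC replicate 3 the lowest for 13 of 13, and P0-NPC replicate 1 the lowest for 13 of 13. In P56-NPCs, replicate 2 was highest for 11 of 13 and replicate 1 lowest for 9 of 13. The highest over the lowest sample of a group had a median over the mRNAs of 1.83 in ASTs, 2.57 in A-iSCs, 1.17 in P56-NPCs and 1.65 in P0-NPCs. By this median A-iSCs varied most. The widest span of a single mRNA was 3.43 times in A-iSCs (mt-Nd6), 3.48 times in P56-NPCs and 4.27 times in P0-NPCs (both mt-Atp8) and 2.18 times in ASTs (mt-Co2).

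P56-NPCs were compared with ASTs to set a suspension of adult tissue against the starting culture. All 13 mRNAs and both rRNAs were higher in P56-NPCs, with no overlap between samples, as for 81.9% of all genes tested in either direction. By limma on log2(FPKM + 1) with Benjamini-Hochberg adjustment over all genes tested, 31 of the 33 mitochondrial genes tested were called at an adjusted p under 0.05, all of them higher, where 78.9% of the 15146 genes tested were called in either direction and 39.1% were higher. The calls were 13 mRNAs, 2 rRNAs and 16 tRNAs. Of the tRNAs, mt-Ti, mt-Tm and mt-Tv passed the filter of a mean of 1 FPKM through P56-NPCs only, so they had to be higher there, and 28 of the other 30 genes tested were called. mt-Co1 rose 5.15-fold (log2 2.37, SE 0.31, adjusted p = 0.000274 by limma) and mt-Cytb 5.17-fold. Among complex I mRNAs, mt-Nd2 rose by 2.69 on the log2 scale, mt-Nd4 by 2.47 and mt-Nd1 by 2.43, but mt-Nd5 by 1.64 (SE 0.23, adjusted p = 0.000408 by limma) and mt-Nd6 by 1.26 (SE 0.29, adjusted p = 0.00549 by limma). Over the 13 mRNAs the median log2 fold change was 2.58, and over all genes tested it was -0.03. The 7 mRNAs used for ratios had a median of 2.37.

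mt-Atp6 and mt-Atp8 had the largest log2 fold changes of the mRNAs in this comparison. mt-Atp6 was at 50.3, 99.4 and 58.7 FPKM in ASTs and 819, 1082 and 1227 in P56-NPCs. This was a 15.2-fold difference in FPKM + 1 (log2 3.93, SE 0.27, adjusted p = 9.17e-06 by limma). The level of mt-Atp6 is uncertain, since its identical copy Gm10925 had 0.978 times its FPKM in ASTs and 0.465 times in P56-NPCs. mt-Atp8 differed by 14.2-fold in FPKM + 1 (log2 3.83, SE 0.46, adjusted p = 0.000178 by limma). Its means were 1.39 FPKM in ASTs, on 4 to 8 fragments, and 38.8 in P56-NPCs, so the added 1 understates this difference. mt-Nd4l was 3.19 higher on the log2 scale, mt-Co2 3.13, mt-Nd3 2.75 and mt-Co3 2.58, and the level of these copied mRNAs is uncertain as well. Without the filter on low values, adjusted p by limma rose to 0.382 for mt-Co1, 0.171 for mt-Cytb, 0.138 for mt-Nd1 and 0.0786 for mt-Nd6, and the cause was not tested. In the same comparison 6 of 6 oligodendrocyte, 7 of 7 astrocyte, 5 of 5 ependymal, 6 of 6 microglia, 5 of 6 neuron and 4 of 4 red blood cell markers tested were higher and 4 of 5 fibroblast and smooth muscle markers lower, where 39.1% of all genes were higher and 39.8% lower. Tissue, age, culture and cell makeup cannot be told apart in it.

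The rRNAs, encoded at MT:70-1024 (mt-Rnr1) and MT:1094-2675 (mt-Rnr2) on the plus strand, differed more than any mRNA between P56-NPCs and each other group. mt-Rnr1 was at 132, 249 and 143 FPKM in ASTs, 618, 431 and 227 in A-iSCs, 16682, 16699 and 18214 in P56-NPCs, and 270, 499 and 471 in P0-NPCs. mt-Rnr2 was at 251, 401 and 243 FPKM in ASTs, 477, 335 and 198 in A-iSCs, 15912, 16037 and 16813 in P56-NPCs, and 456, 787 and 768 in P0-NPCs. No P56-NPC sample came near the other groups for either gene. In P56-NPCs over ASTs, mt-Rnr1 was 102-fold higher (log2 6.67, 95% CI 6.07 to 7.28, adjusted p = 4.80e-07 by limma) and mt-Rnr2 55.8-fold higher (log2 5.80, 95% CI 5.27 to 6.33, adjusted p = 5.04e-07 by limma). On the scale of FPKM + 1, these intervals lie above those of all 13 mRNAs, the highest of which reached 4.92 for mt-Atp8. That scale understates the difference of mt-Atp8, which was at 1.06 to 1.93 FPKM in ASTs. The alignment found no annotated nuclear copy of either rRNA.

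The make-up of the libraries was examined beside the rRNA levels, since whether poly(A) RNA was selected is not stated and rRNAs carry short tails or none. Small nuclear RNAs, which have no poly(A) tail, held 10.1 ± 1.70 of every 1000000 fragments in ASTs (SD, n = 3), 24.9 ± 5.10 in A-iSCs, 13.3 ± 0.618 in P56-NPCs and 23.7 ± 2.73 in P0-NPCs. Small nucleolar RNAs held 26.3 ± 3.84, 52.8 ± 18.5, 18.9 ± 2.68 and 55.7 ± 7.19 in the same order and unit. The nuclear RNA Rn7sk was at 3.58 ± 0.849 FPKM in ASTs, 17.6 ± 6.79 in A-iSCs, 8.63 ± 1.21 in P56-NPCs and 3.89 ± 1.20 in P0-NPCs. By group mean, small nuclear RNAs and Rn7sk were highest in A-iSCs and small nucleolar RNAs in P0-NPCs. Small nuclear RNAs and Rn7sk were also higher in P56-NPCs than in ASTs. How library preparation bore on the rRNA levels was not tested.

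**Figure D3:**
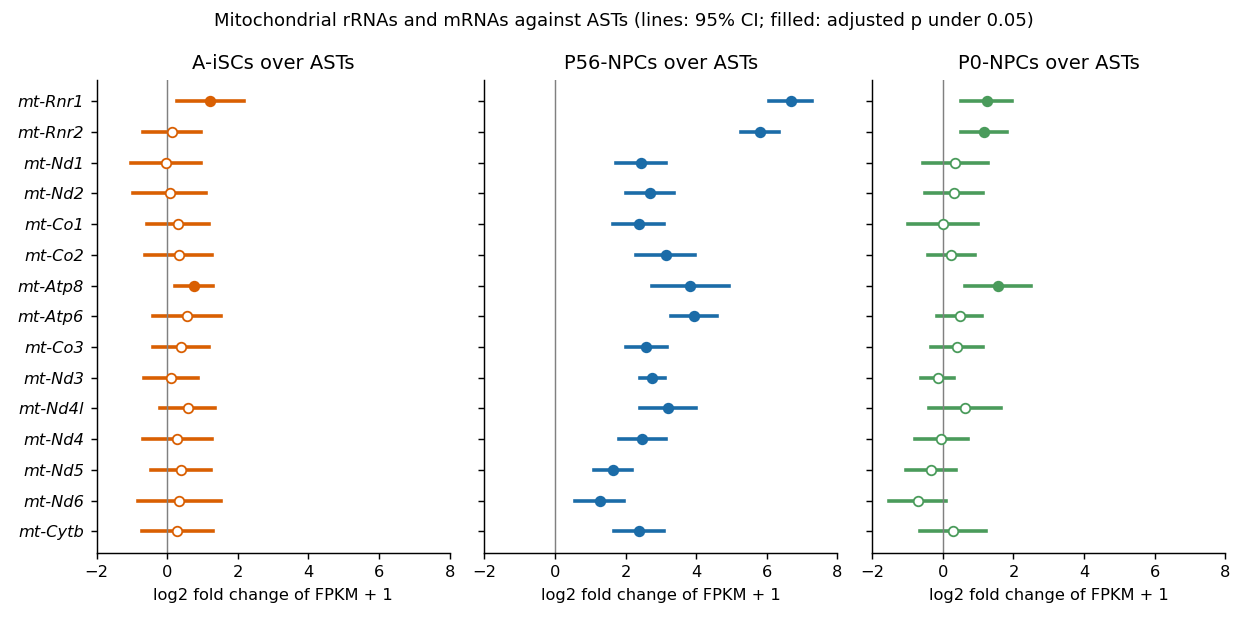
Log2 fold change of FPKM + 1 over ASTs for the 2 rRNAs and 13 mRNAs in A-iSCs, P56-NPCs and P0-NPCs, with 95% confidence intervals as lines and filled points for an adjusted p under 0.05 by limma. In P56-NPCs all points lie above 0 with mt-Rnr1 at 6.67 and mt-Rnr2 at 5.80, while most mRNA intervals of the other groups include 0. The 3 comparisons share the same AST samples.

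A-iSCs were compared with ASTs to follow the cells from flat culture into spheres. Of the 13 mRNAs, only mt-Atp8 was called, and the samples of the other 12 overlapped between groups, where 62.7% of all genes tested did not overlap. Their log2 fold changes ran from -0.04 (mt-Nd1) to 0.58 (mt-Nd4l). For mt-Co1 the log2 fold change was 0.31 with a 95% CI of -0.58 to 1.20 (adjusted p = 0.517 by limma), and for mt-Nd1 the interval was -1.03 to 0.94. In all, 5 of 31 mitochondrial genes tested were called, all higher in A-iSCs and all with a mean of at least 1 FPKM in both groups, where 54.8% of all 14087 genes tested were called and 25.2% were higher. mt-Atp8, on 4 to 8 fragments in ASTs and 11 to 17 in A-iSCs, was higher by 0.76 (SE 0.23, adjusted p = 0.0246 by limma) and mt-Rnr1 by 1.22 (SE 0.40, adjusted p = 0.0348 by limma). AST replicate 2 exceeded A-iSC replicate 3 for mt-Rnr1, and both calls were lost when AST replicate 1 or 3 or A-iSC replicate 1 or 2 was left out. Without A-iSC replicate 3, the sample lowest for all mRNAs, 10 mitochondrial genes were called, among them mt-Atp6 and mt-Nd4l. mt-Rnr2 differed by 0.12 (95% CI -0.69 to 0.94) and was not called. The median of the mRNAs was 0.32 against -0.06 over all genes tested. It moved to 0.03 without A-iSC replicate 1, 0.69 without A-iSC replicate 3, 0.18 and 0.20 without AST replicates 1 and 3, 0.60 without AST replicate 2 and 0.53 with scaling by library size alone. In the same comparison 6 of 6 microglia, 6 of 7 astrocyte and 3 of 3 oligodendrocyte markers tested were higher and 4 of 4 fibroblast and smooth muscle markers lower, where 25.2% of all genes were higher and 29.6% lower.

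P0-NPCs were compared with ASTs in the same way. Both rRNAs were higher, mt-Rnr1 by 1.25 (SE 0.31, adjusted p = 0.00644 by limma) and mt-Rnr2 by 1.16 (SE 0.28, adjusted p = 0.00556 by limma). mt-Atp8 was the only mRNA called, higher by 1.56 (SE 0.40, adjusted p = 0.00783 by limma). mt-Nd6 was at 1575, 3139 and 1585 FPKM in ASTs and at 882, 1415 and 1427 in P0-NPCs. The log2 difference was -0.71 (95% CI -1.53 to 0.10). It missed the threshold at an adjusted p of 0.0946 by limma and passed at 0.0332 with limma-voom on fragments. In all, 13 of 33 mitochondrial genes tested were called, 10 higher and 3 lower (7 and 2 of the 29 genes with a mean of at least 1 FPKM in both groups), where 79% of 15010 genes tested were called, 38.1% higher and 40.9% lower. The mRNAs had a median of 0.29 and the 7 used for ratios 0.00, against -0.07 over all genes tested. The former moved to 0.09 without P0-NPC replicate 3, 0.47 without P0-NPC replicate 1, 0.14 without AST replicate 1, 0.57 without AST replicate 2 and 0.58 with scaling by library size alone, and the latter lay between -0.15 and 0.29 in these settings.

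The spheres and the suspensions were also set against each other, with the same 12 samples serving all 6 comparisons. In A-iSCs over P56-NPCs, 30 of 33 mitochondrial genes tested were lower and 0 higher by limma (27 of the 30 that passed the filter in both groups), where 61% of 15044 genes tested were called and 30.9% were lower. mt-Rnr1 fell by 5.45 on the log2 scale, mt-Rnr2 fell by 5.68, and the median of the 13 mRNAs was -2.47 against 0.03 over all genes tested. mt-Nd6 was the only mRNA not called, at 4407, 2835 and 1283 FPKM in A-iSCs and 4612, 4868 and 4848 in P56-NPCs. The log2 difference was -0.92 (95% CI -1.91 to 0.07) and the adjusted p was 0.0935 by limma. mt-Nd5, at 3686, 2847 and 1606 FPKM in A-iSCs and 5836, 6674 and 5912 in P56-NPCs, was called at an adjusted p of 0.00963 by limma but not with scaling by library size alone (0.0692). In A-iSCs over P0-NPCs, 9 of 33 mitochondrial genes tested were called, 2 higher and 7 lower (1 and 4 of the 29 that passed the filter in both groups), where 65.1% of 15170 genes tested were called, 31.5% higher and 33.6% lower. These were 8 tRNAs and mt-Rnr2, lower by 1.04 (SE 0.35, adjusted p = 0.0312 by limma) with overlapping samples, and this call was lost without A-iSC replicate 2 or 3 or P0-NPC replicate 2 or 3. No mRNA was called, at 0 of 13 by limma. mt-Nd6 had the largest difference among them, 1.06 higher in A-iSCs (adjusted p = 0.0687 by limma), and was called without A-iSC replicate 3 (adjusted p = 0.00311 by limma).

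P56-NPCs and P0-NPCs were both harvested from brain, and nearly all mitochondrial genes were higher in P56-NPCs. Whether either was kept in culture before RNA was taken is not stated. Of 33 mitochondrial genes tested, 32 were higher in P56-NPCs (31 of the 32 that passed the filter in both groups), where 78.8% of 15394 genes tested were called and 39.7% were higher. mt-Rnr1 was 43.0-fold higher (log2 5.43, SE 0.24, adjusted p = 6.90e-07 by limma) and mt-Rnr2 24.9-fold higher. All 13 mRNAs rose, by a median of 2.36 against 0.01 over all genes tested, from 1.98 for mt-Nd5 and mt-Nd6 to 3.45 for mt-Atp6. The level of mt-Atp6 is uncertain, since its copy Gm10925 had 0.465 times its FPKM in P56-NPCs and 1.12 times in P0-NPCs. The single gene tested and not called was mt-Tv. Age, brain region and dissociation protocol differed together between these groups and cannot be told apart.

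Ratios between mitochondrial RNAs within each library do not depend on scaling between samples. The mean FPKM of the rRNAs over that of the 7 mRNAs was 0.0581, 0.0581 and 0.0545 in ASTs, 0.0776, 0.0734 and 0.0733 in A-iSCs, 0.855, 0.757 and 0.884 in P56-NPCs, and 0.110, 0.142 and 0.116 in P0-NPCs. No group overlapped another. The balance between the rRNAs took another order: mt-Rnr2 over mt-Rnr1 was 1.74 ± 0.146 (SD, n = 3) in ASTs and 1.63 ± 0.0557 in P0-NPCs, but 0.807 ± 0.0575 in A-iSCs and 0.946 ± 0.0199 in P56-NPCs. A-iSCs and ASTs thus differed in mt-Rnr1 relative to mt-Nd1, at 0.0835 ± 0.00288 and 0.0345 ± 0.00125 with no overlap, while mt-Rnr2 over mt-Nd1 was 0.0673 ± 0.00383 and 0.0599 ± 0.00376 and overlapped. With 3 samples against 3, an exact test of a ratio could not reach a p under 0.1, and none is given.

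Among mRNAs, mt-Nd5 (MT:11742-13565) and mt-Nd6 (MT:13552-14070), which are complex I subunits and neighbours on opposite strands, set cultured cells apart from suspensions. mt-Nd5 over mt-Nd1 was 0.420, 0.382 and 0.417 in ASTs and 0.517, 0.541 and 0.578 in A-iSCs, but 0.235, 0.243 and 0.227 in P56-NPCs and 0.240, 0.290 and 0.227 in P0-NPCs. mt-Nd6 over mt-Nd1 was 0.411 ± 0.0395 (SD, n = 3) in ASTs, 0.540 ± 0.0781 in A-iSCs, 0.183 ± 0.00504 in P56-NPCs and 0.197 ± 0.0184 in P0-NPCs. For both ratios every cultured sample was above every suspension sample, and the suspensions overlapped each other. mt-Cytb (MT:14145-15288), which follows them, had another order, as mt-Cytb over mt-Nd1 was 1.40 ± 0.0112 in A-iSCs, 1.11 ± 0.0099 in ASTs, 1.07 ± 0.0170 in P56-NPCs and 1.07 ± 0.0426 in P0-NPCs. mt-Nd4 over mt-Nd1 ranged from 0.297 ± 0.0183 in P0-NPCs to 0.491 ± 0.00867 in A-iSCs. As shares of the summed FPKM of the 13 mRNAs, mt-Nd1 held 14.0% ± 0.403 in A-iSCs, 17.0% ± 0.386 in ASTs, 18.0% ± 0.382 in P56-NPCs and 20.2% ± 0.244 in P0-NPCs, and no group overlapped another. A lower mt-Nd1 raises every ratio to it in A-iSCs. Over mt-Cytb instead, mt-Nd5 was at 0.365 ± 0.0158 in ASTs and 0.390 ± 0.0247 in A-iSCs, which overlapped, and at 0.220 ± 0.00869 in P56-NPCs and 0.237 ± 0.0413 in P0-NPCs, again below every cultured sample.

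**Figure D4:**
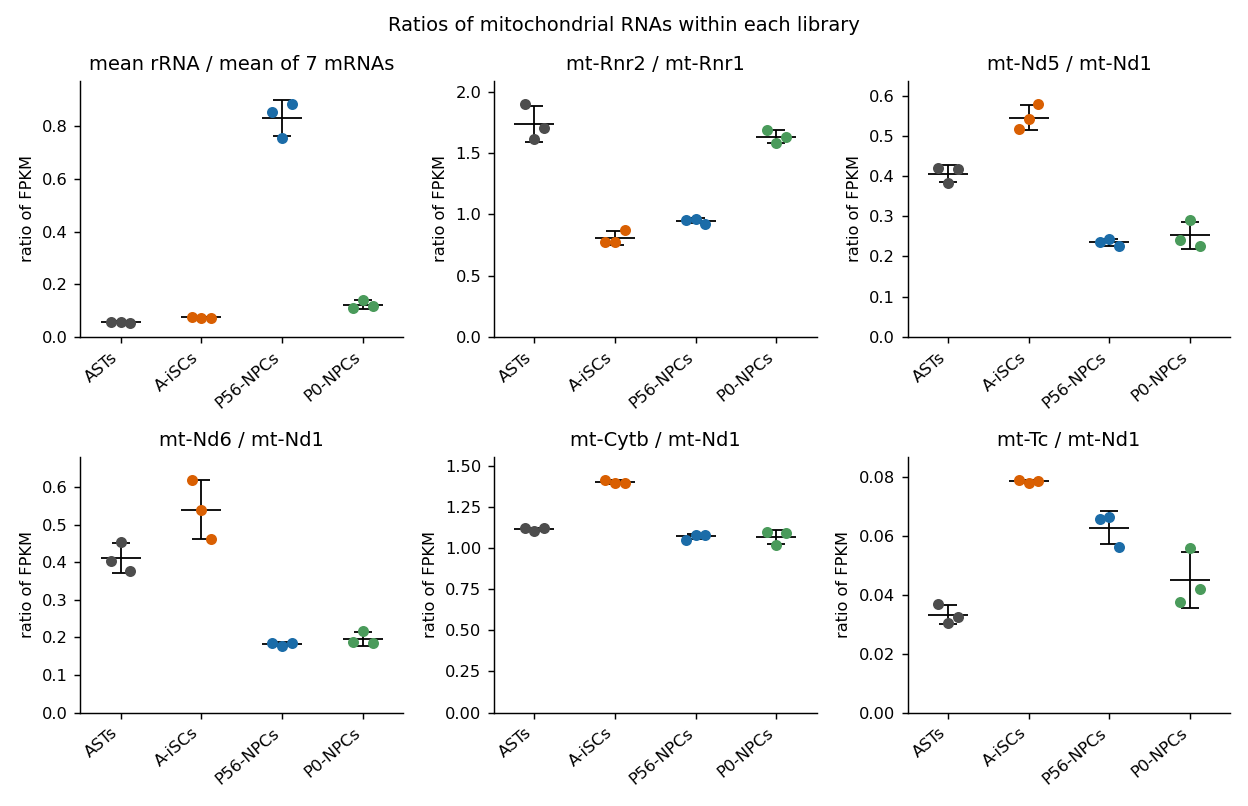
Ratios of FPKM between mitochondrial RNAs within each library, 1 point per sample with the group mean (bar) and SD (error bars), n = 3 per group. The mean rRNA over mRNA ratio is 0.832 in P56-NPCs and at most 0.123 as the mean of another group, mt-Nd5 and mt-Nd6 over mt-Nd1 are higher in ASTs and A-iSCs than in the suspensions, and mt-Tc over mt-Nd1 is higher in A-iSCs than in ASTs.

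The tRNA genes, 59 to 75 bases long, drew 50953 fragments in all samples together. Genes on the minus strand held 84.5% of them, and mt-Tp, mt-Tc and mt-Tn, which carry proline, cysteine and asparagine, held 76.9%. The 3 sequences are shown 5′ to 3′ because they carry most of the tRNA signal.
mt-Tp, MT:15356-15422, minus strand: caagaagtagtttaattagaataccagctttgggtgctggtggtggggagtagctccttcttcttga
mt-Tc, MT:5192-5257, minus strand: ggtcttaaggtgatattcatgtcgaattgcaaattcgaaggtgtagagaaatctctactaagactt
mt-Tn, MT:5089-5159, minus strand: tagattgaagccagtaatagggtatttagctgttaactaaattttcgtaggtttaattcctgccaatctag
mt-Tc and mt-Tn lie in a cluster of minus-strand tRNA genes between mt-Nd2 and mt-Co1, and mt-Tp lies after mt-Cytb and mt-Tt, which is on the plus strand. Since strand is not stated to be kept, fragments of minus-strand tRNA genes cannot be told apart from RNA of the opposite strand, and how fragments that span a tRNA and its neighbour were counted is not given.

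mt-Tp had 539, 1090 and 626 fragments in ASTs, 1293, 1132 and 991 in A-iSCs, 4595, 5005 and 4685 in P56-NPCs, and 749, 1355 and 1126 in P0-NPCs. mt-Tc had 159, 282 and 168 in ASTs, 749, 645 and 386 in A-iSCs, 1870, 1931 and 1600 in P56-NPCs, and 267, 698 and 590 in P0-NPCs. The P56-NPC samples were highest for both, and mt-Tc in A-iSCs lay above all AST samples. Of the 22 tRNA genes, 15 had at least 10 fragments in every sample of a group and are named here, and 7 did not. In P56-NPCs over ASTs, mt-Ty, the tyrosine tRNA, had the largest log2 fold change of the tRNAs, 4.84 (SE 0.16, adjusted p = 2.51e-07 by limma), from 13 to 16 fragments in ASTs and 350 to 495 in P56-NPCs. That order is for FPKM + 1, which understates tRNAs near 0 in ASTs, such as mt-Tm (mean 0.26 FPKM in ASTs and 18.7 in P56-NPCs). mt-Tp was higher by 2.88, mt-Tn by 3.02, mt-Tl1 by 3.19, mt-Tc by 3.34 and mt-Tw by 3.55. mt-Ta was higher by 2.97 on 15 to 22 fragments in P56-NPCs and 0 to 8 in ASTs, mt-Tr by 1.64 on 31 to 40 and 11 to 14, mt-Te by 2.05 and mt-Tg by 1.72. mt-Th, at 0.50, and mt-Tl2 (adjusted p = 0.0595 by limma) were not called, and mt-Ts2 was higher by 0.85 (adjusted p = 0.0307 by limma). In A-iSCs over ASTs the calls were mt-Tc (log2 1.20, adjusted p = 0.0243 by limma), mt-Tw (0.84) and mt-Ty (1.42, adjusted p = 0.000624 by limma).

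In P0-NPCs over ASTs, mt-Tc, mt-Te, mt-Ti, mt-Tl1, mt-Tm and mt-Ty were higher, with overlapping samples for mt-Tc. Of these, mt-Ti and mt-Tm passed the filter through P0-NPCs only, so they had to be higher there, with at most 10 fragments in a P0-NPC sample. On the log2 scale, mt-Tg fell by 1.17 and mt-Th fell by 0.63, the latter with overlapping samples. mt-Tv was also called higher and mt-Tt lower, and these are named after their values were seen, with at most 9 and 13 fragments in any sample. Each passed the filter through 1 group only, so its direction was set by the filter. Counting error limits genes with so few fragments. Relative to mt-Nd1 in the same library, mt-Tc was at 0.0333 ± 0.00327 (SD, n = 3) in ASTs, 0.0786 ± 0.00047 in A-iSCs, 0.0629 ± 0.00558 in P56-NPCs and 0.0451 ± 0.00952 in P0-NPCs, so A-iSC samples did not overlap those of another group over this denominator. Over mt-Cytb, taken after seeing the data because mt-Nd1 is low in A-iSCs, mt-Tc was at 0.0299 ± 0.00274 in ASTs, 0.0561 ± 0.000286 in A-iSCs, 0.0588 ± 0.00575 in P56-NPCs and 0.0425 ± 0.0108 in P0-NPCs. A-iSCs then overlapped P56-NPCs and still lay above ASTs. mt-Tn was likewise above ASTs in A-iSCs without overlap, at 0.0479 ± 0.00129 and 0.0269 ± 0.00200 over mt-Nd1 and at 0.0342 ± 0.000755 and 0.0242 ± 0.00175 over mt-Cytb. The tRNA share of the mitochondrial fragments differed little, at group means of 0.226 to 0.269%.

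**Figure D5:**
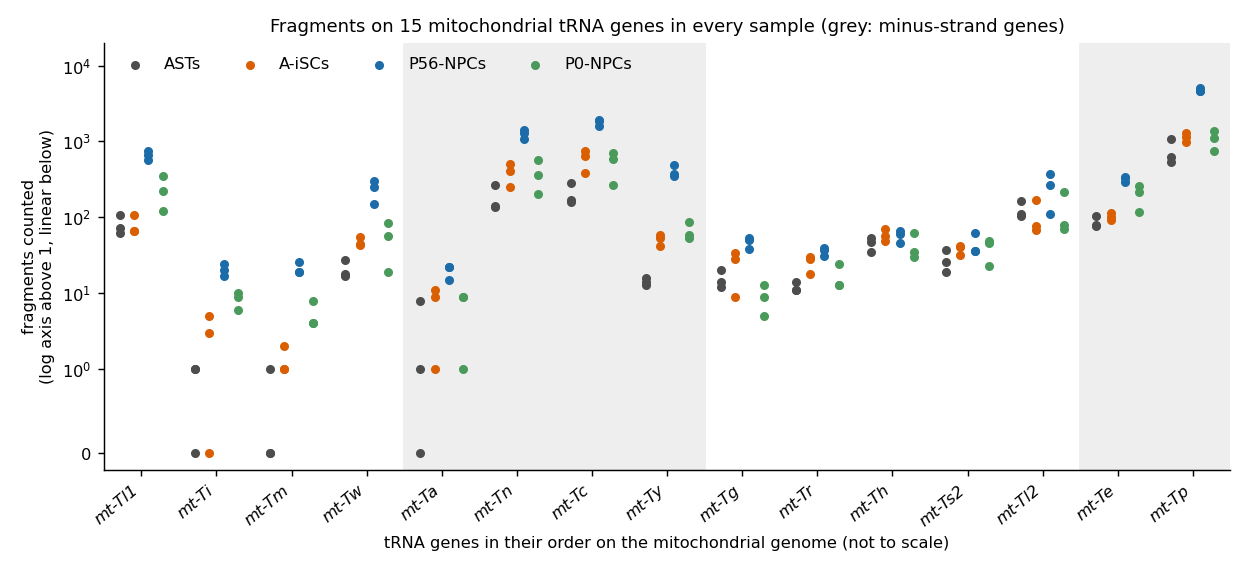
Fragments counted on the 15 named mitochondrial tRNA genes in each of the 12 samples (log axis above 1, linear below), with genes in their order along the genome and grey for minus-strand genes. mt-Tp, mt-Tc and mt-Tn have the most fragments, and P56-NPC samples lie highest for most genes but overlap the others for mt-Th, mt-Ts2 and mt-Tl2.

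The respiratory chain also needs subunits made from nuclear genes. Against ASTs, these genes were called lower more often than all genes in A-iSCs and P0-NPCs, but less often in P56-NPCs. Of 75 nuclear-encoded subunits and partners tested, 10 were higher and 22 lower in P56-NPCs than in ASTs, where 39.1% of all genes tested were higher and 39.8% lower, and their median log2 fold change was -0.17. The complex IV subunits Cox8a and Cox4i1 rose by 1.22 and 0.87 and the complex I subunit Ndufb9 by 1.29, while Ndufb6 fell by 1.33, the electron carrier Cycs fell by 1.22 and Uqcrb of complex III fell by 1.14. In A-iSCs over ASTs, 0 were higher by limma and 33 lower, where 25.2% of all genes were higher and 29.6% lower, with a median of -0.53, and Ndufb6, Cycs and Ndufa4 fell by 1.45, 1.39 and 1.19. In P0-NPCs over ASTs, 0 were higher by limma and 67 lower, where 40.9% of all genes were lower. In P56-NPCs over P0-NPCs, 66 were higher and 1 lower, where 39.7% of all genes were higher. Genes of mitochondrial mass and protein import were lower in P56-NPCs than in ASTs for 15 of 17 tested and higher for 0 by limma, where 39.8% of all genes were lower, with Hspd1, the mitochondrial chaperonin, at -1.57 (adjusted p = 1.6e-05 by limma). In A-iSCs over ASTs 15 of 17 were lower as well, where 29.6% of all genes were.

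Factors that make and handle mitochondrial RNA were mostly lower in P56-NPCs than in ASTs, at 20 of 29 tested against 1 higher, where 39.8% of all genes were lower and 39.1% higher. Rexo2, an exonuclease that clears short mitochondrial RNA, fell by 1.66, Trmt10c, a subunit of mitochondrial RNase P, fell by 1.46, and the elongation factor Tefm fell by 1.17. Polrmt was at -0.05 (adjusted p = 0.614 by limma), Tfam, which packages the DNA and starts transcription, fell by 0.30, and Lrpprc, which stabilises mitochondrial mRNAs, fell by 0.56. Slirp, its partner, was at -0.40 and was not called. P0-NPCs had 17 of 29 of these factors lower than ASTs and 2 higher, where 40.9% of all genes were lower and 38.1% higher. In A-iSCs over ASTs, 3 of 30 were higher and 8 lower, near the 25.2% and 29.6% of all genes or under them, Lrpprc fell by 0.54 (adjusted p = 0.00299 by limma), and Polrmt (-0.06), Tfam (-0.17) and Slirp (-0.46) were not called. Of 10 genes of mitochondrial DNA upkeep tested, 3 were higher and 1 lower in P56-NPCs, which does not exceed the shares of all genes. Among 8 regulators of mitochondrial gene supply, 2 were higher and 5 lower in P56-NPCs beside the same shares of all genes. Ppargc1a, a coactivator of mitochondrial biogenesis named whatever its value, was among the 2 higher and so unlike most of the list. It was higher by 1.09 (SE 0.09, adjusted p = 3.0e-05 by limma) at 6.80 FPKM against 2.69 in ASTs. In A-iSCs it was at 0.16 (adjusted p = 0.422 by limma). The 8 tested nuclear copies of mitochondrial genes were all higher in P56-NPCs than in ASTs, with a median of 2.75, where 39.1% of all genes were higher. Most of these copies are identical or nearly so to mitochondrial genes. Their fragments cannot be told apart from mitochondrial RNA, so this is not a separate result on nuclear genes. In A-iSCs and P0-NPCs over ASTs, 0 of 8 were called by limma, where 54.8% and 79% of all genes were.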

How the data were processed

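Total RNA of 12 samples was sequenced as paired-end reads from NEBNext Ultra libraries. The authors deposited 1 table of FPKM, fragments scaled by gene length and library size, for 55862 genes. The submitters' processing notes name Bowtie 0.12.2 and mm8, whereas the positions in the table are those of GRCm38. The library sizes behind the values were 0.744 to 1.22 times the fragments counted, so a scaling between samples was already included. Recovered fragments were whole within 0.01 for 100% of values. A floor of 3 fragments was worth 0.103 to 0.187 FPKM on a gene of 1000 bases. Such floors cover counting error only, since no molecular identifiers are named.

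Groups were compared 2 at a time in 6 comparisons with limma 3.58.1 (R 4.3.3; lmFit, eBayes with a trend) on log2(FPKM + 1). A gene was tested where either group had a mean of 1 FPKM or more. Fold changes are on that scale and understate those of low genes. P-values were adjusted by Benjamini-Hochberg over all genes tested, with 0.05 as the threshold. DESeq2, which the study used, was not run, and limma-voom on the recovered fragments was tried as the count-based alternative. The script was tested on simulated data. Nuclear copies were found with blastn 2.17.0 on GENCODE M21 transcripts, from which the sequences were taken. Python 3.11.15, pandas 2.3.3, numpy 2.4.6 and matplotlib 3.10.9 were used.

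All 13 mRNAs, both rRNAs and tRNA genes with at least 10 fragments in every sample of a group were named. Of nuclear lists, some of the genes with the largest changes in either direction were named, beside Polrmt, Tfam, Lrpprc, Slirp and Ppargc1a, which were named whatever their values. Members and lists were chosen with earlier results of these data known. No sample was left out.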

Additional observations from a re-analysis of the deposited data

How the results depend on the processing

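Besides the settings used, each comparison was run with a pseudocount of 0.1, without the filter on low values, with upper-quartile scaling, with scaling by library size or by nuclear fragments alone, with all 4 groups in the model, with limma-voom on fragments, at an adjusted p under 0.01 and without each sample in turn. The counts of mitochondrial genes called in A-iSCs over ASTs (5) and over P0-NPCs (9) depended on them: without the filter 2 and 3 were called, with limma-voom 3 and 5, at 0.01 1 and 2, and when single samples were left out 2 to 10 and 4 to 10. The counts of the other 4 comparisons stayed within 1.5 times. The median of the 13 mRNAs in P56-NPCs over P0-NPCs was 1.73 with scaling by library size alone. That scaling moved the median of all genes to -0.50 there, -0.30 in P56-NPCs over ASTs and 0.48 in A-iSCs over P56-NPCs, where the mRNA medians were 2.24 and -1.91. The mitochondrial share of P56-NPCs was 14.5% for the 13 mRNAs over protein-coding genes. No direction of a called value reversed. Of single-gene values, 53 passed the threshold only under an alternative, 163 lost it and 52 without a test moved. Causes were not tested. Genes under 10 fragments are limited by depth.

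With the replicate number as a block, 7 mitochondrial genes were called in A-iSCs over ASTs, 33 in P56-NPCs over ASTs, 15 in P0-NPCs over ASTs, 30 in A-iSCs over P56-NPCs, 8 in A-iSCs over P0-NPCs and 32 in P56-NPCs over P0-NPCs. The residuals of same-numbered samples of A-iSCs and ASTs correlated at -0.41, 0.35 and 0.45, and those of the other comparisons at -0.14 to 0.10, so the numbers were not shown to pair the samples.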
